A study of Mus musculus with 64 samples.

Results

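The genes described here are 36 genes of DNA replication and cell division, out of 55487 genes in a table of unique molecular identifiers (UMIs, random tags that let each captured RNA molecule be counted once) from mouse liver. They were chosen by gene symbol: 14 act in S phase, when DNA is copied, and 22 act in mitosis or in the G2 phase that precedes it. The libraries came from male C57BL/6J mice with free access to food, each given 1 of 2 AAV8 vectors 4 weeks before the liver was taken. In the sh-Acsf3 group the vector carried a hairpin against Acsf3, a gene for a mitochondrial enzyme that activates malonate, and in the sh-Ctl group it carried a control hairpin. Both groups therefore had an AAV8 injection and a hairpin, and both were sampled around the clock, at zeitgeber time (ZT, counted in hours from when the lights came on) 0, 3, 6, 9, 12, 15, 18 or 21, with 4 libraries per treatment and time, 64 in all. The age of the mice, the promoter of the hairpin and the sequence of the control hairpin are not given in the sources used here.

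Most hepatocytes of an adult mouse rest outside the cell cycle, and liver RNA holds few transcripts of the division machinery unless cells are dividing. A dividing cell first makes the proteins that copy DNA. The MCM2-7 helicase is loaded on origins by CDC6 and CDT1, PCNA clamps the polymerases to the template, ligase I joins the fragments, and thymidylate synthase and ribonucleotide reductase supply the nucleotides. It later makes the proteins that separate the chromosomes: CDK1 with the A and B cyclins, the Aurora and Polo kinases, kinesins and centromere proteins, and CDC20, which starts anaphase. E2F factors act on the genes of the first wave. The DREAM and MMB complexes act on many genes of the second wave through a promoter element called the cell cycle homology region (CHR), often with NF-Y at CCAAT boxes nearby.

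Promoter sequences from RefSeq (build GRCm38.p6) were matched to 29 of the 36 genes by symbol, 12 of S phase and 17 of mitosis. Each window ran from 250 bases before to 50 bases after an annotated start, and both strands were searched for exact matches. The E2F motif was TTGGCGC or any of the variants TTCGCGC as well as TTCCCGC as well as TTGCCGC, and matches on opposite strands can overlap. The CHR motif was TTTGAA or else the variant TTCGAA, and the NF-Y motif was CCAAT. Matches of different motifs can share bases, for example CCAAT on one strand and TTGGCGC on the other. Mcm4, Gins2, Ccna2, Aurkb, Kif20a, Tpx2 and Stmn1 had no entry in the table used. The stretches below come from 6 of the 11 members that were called higher in sh-Acsf3 livers, and each holds a motif. Tyms, also called, held no E2F motif. Birc5, also called, held no E2F, CHR or CCAAT motif. The called genes Rrm1, Lig1 and Mki67 held motifs and are not printed. Only bases before both the RefSeq start and the GENCODE M21 gene start are printed. They are written along the gene's strand, with capitals for E2F motifs in the S phase genes and for CHR and CCAAT motifs in the mitosis genes, in either orientation.

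Mcm6, chr1:128359732-128359824 (minus strand): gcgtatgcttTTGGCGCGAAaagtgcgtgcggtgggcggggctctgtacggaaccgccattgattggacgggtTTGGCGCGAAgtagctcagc
Mcm5, chr8:75109335-75109376 (plus strand): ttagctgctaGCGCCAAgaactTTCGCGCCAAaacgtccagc
Top2a, chr11:99024197-99024426 (minus strand): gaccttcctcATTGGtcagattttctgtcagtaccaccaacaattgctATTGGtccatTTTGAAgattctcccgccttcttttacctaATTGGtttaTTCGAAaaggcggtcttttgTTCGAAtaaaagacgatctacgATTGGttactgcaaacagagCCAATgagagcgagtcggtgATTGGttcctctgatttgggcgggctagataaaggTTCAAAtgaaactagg
Cdk1, chr10:69352946-69353130 (minus strand): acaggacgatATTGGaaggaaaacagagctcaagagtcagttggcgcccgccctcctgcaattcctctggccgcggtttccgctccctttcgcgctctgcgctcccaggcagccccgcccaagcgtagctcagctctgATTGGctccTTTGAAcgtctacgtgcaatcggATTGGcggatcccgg
Cdc20, chr4:118437353-118437406 (minus strand): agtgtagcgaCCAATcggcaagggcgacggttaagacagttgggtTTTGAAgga
Ccnb1, chr13:100786571-100786595 (minus strand): acccgcggcgCCAATgggaagagag

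An E2F motif lay in a window of 9 of the 12 S phase genes (75%), 4 of the 17 mitosis genes (23.5%) and 10.9% of the 27018 genes in the promoter table. A CHR motif lay in 2 of the 12 S phase genes (16.7%), 13 of the 17 mitosis genes (76.5%) and 21.7% of all genes. CCAAT was found in 8 of 12 (66.7%) and 15 of 17 (88.2%), against 41.1% of all genes, and all 13 mitosis genes with a CHR motif also held CCAAT, which was so for 9.65% of all genes. These are letter matches in short windows, not binding sites. When only the 200 bases before the start were searched, E2F motifs remained in 5 S phase genes and CHR motifs in 8 mitosis genes, against 7.77% and 15.4% of all genes. Top2a had the most CHR matches of any member, 4, and Mcm6 had the most E2F matches, 5. Ccnb1, the gene for cyclin B1, had 2 CCAAT boxes, of which 1 is printed, and no CHR match in its window.

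**Figure D1:**
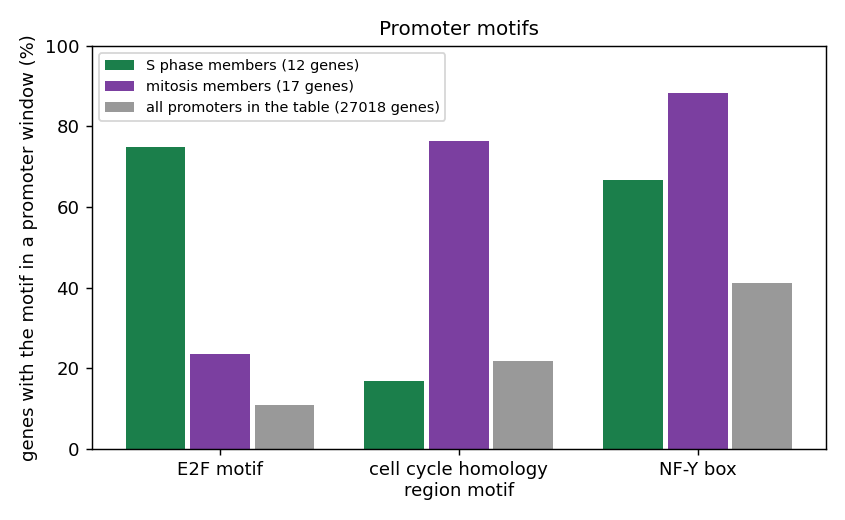
Share of genes (y axis, percent) with an E2F motif, a cell cycle homology region motif or an NF-Y box in a promoter window of 300 bases, for the 12 S phase members, the 17 mitosis members and the 27018 genes of the promoter table. E2F motifs are at 75% in the S phase members and CHR motifs at 76.5% in the mitosis members, against 10.9% and 21.7% of all genes.

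In units of 1000000 UMIs, library totals were 0.839 to 9.35 in sh-Acsf3 livers (median 2.03) and 1.48 to 6.06 in sh-Ctl livers (median 3.13). Acsf3 itself had a median of 2.48 CPM (UMIs scaled to a library of 1000000, with library sizes adjusted by the TMM method) in sh-Acsf3 livers and 11.0 CPM in sh-Ctl livers, a log2 difference of -2.23 ± 0.13 (SE). Summed hepatocyte markers lay between 110869 and 155628 CPM in sh-Acsf3 livers and between 78714 and 159223 CPM in sh-Ctl livers. RNA of exocrine pancreas was above 100 CPM in 8 libraries, 6 of sh-Acsf3 and 2 of sh-Ctl. The acute-phase gene Saa1 was above 1000 CPM in 4 libraries, all sh-Ctl, and 2 libraries, both sh-Acsf3, held under 1000000 UMIs. Results below that change without these libraries are given with their values. Nothing in the labels says that replicates came from separate mice, so p-values measure the spread between libraries.

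At this depth the S phase genes together gave 65 to 828 UMIs per sh-Acsf3 library and 58 to 634 per sh-Ctl library. The mitosis genes gave 11 to 270 UMIs per sh-Acsf3 library and 7 to 211 per sh-Ctl library. All 36 genes had UMIs in both treatments. The least counted was Bub1, a kinase of the spindle checkpoint, with 13 UMIs over 32 sh-Acsf3 libraries and 13 over 32 sh-Ctl libraries. The most counted was Rrm2, the small subunit of ribonucleotide reductase, with 1168 and 987. UMIs were therefore summed over libraries first, and the intervals given for ratios of such sums cover counting error only.

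Summed over the day, both waves were higher in sh-Acsf3 livers, and the mitosis genes by more. The 22 mitosis genes gave 2779 UMIs in sh-Acsf3 livers and 1323 in sh-Ctl livers, or 27.8 and 13.4 CPM, a ratio of 2.07 (95% interval 1.94 to 2.21). The 14 S phase genes gave 7936 UMIs in sh-Acsf3 livers and 6246 in sh-Ctl livers, or 79.3 and 63.3 CPM, a ratio of 1.25 (1.21 to 1.30). There were thus 2.86 S phase UMIs per mitosis UMI in sh-Acsf3 livers and 4.72 in sh-Ctl livers. When each gene was left out in turn, the mitosis ratio stayed between 2.00 (without Cdc20) and 2.13 (without Stmn1), and the S phase ratio between 1.22 (without Mcm6) and 1.28 (without Pcna). In bulk tissue, a larger number of dividing cells and more of these transcripts in each such cell cannot be told apart.

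Per library, the mitosis sum was 9.79 CPM at the lowest, 22.5 at the median and 94.4 at the highest in sh-Acsf3 livers, and 4.35, 10.4 and 28.6 CPM in sh-Ctl livers. The 2 treatments overlapped, but 31 of 32 sh-Acsf3 libraries lay above the sh-Ctl median, 12 lay above every sh-Ctl library, and 15 sh-Ctl libraries lay below every sh-Acsf3 library. The S phase sum was 45.4, 71.7 and 178.5 CPM in sh-Acsf3 livers and 42.5, 58.7 and 89.5 CPM in sh-Ctl livers. Here 25 of 32 sh-Acsf3 libraries lay above the sh-Ctl median and 8 above every sh-Ctl library. The log2 ratio of S phase to mitosis UMIs was 1.66 ± 0.70 in sh-Acsf3 livers and 2.44 ± 0.57 in sh-Ctl livers (SD, n = 32 libraries each).

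**Figure D2:**
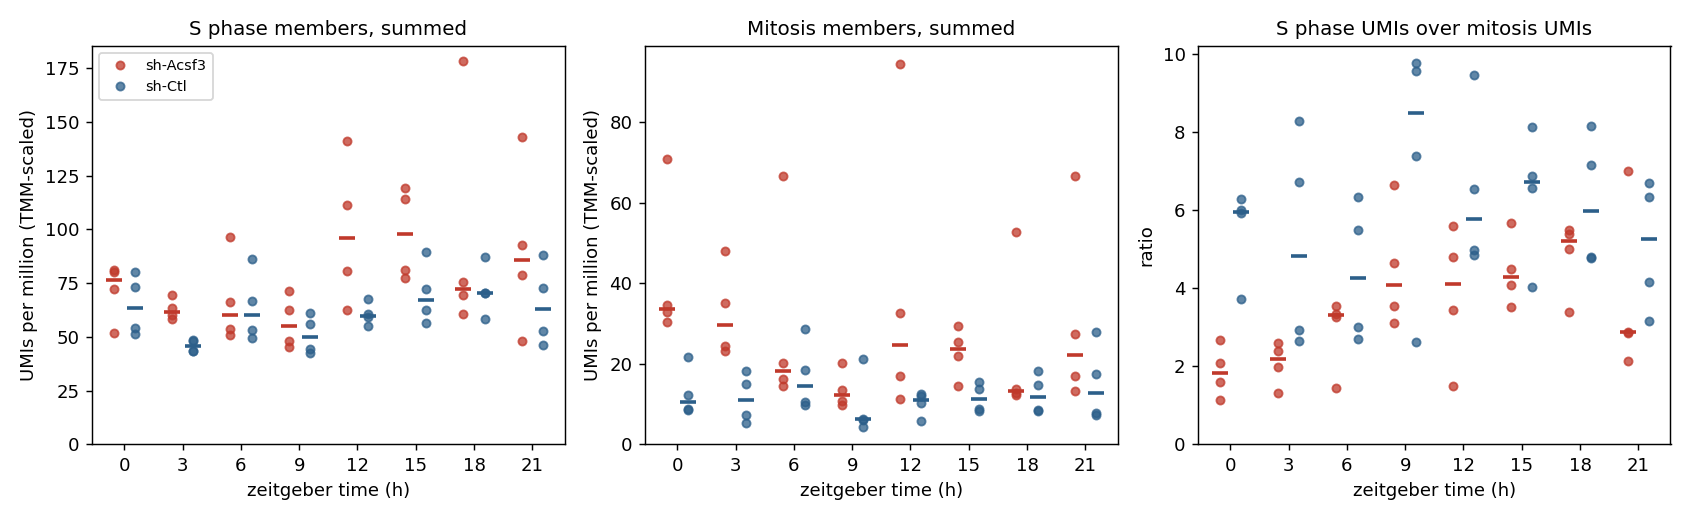
Summed S phase members (left) and mitosis members (middle) in CPM, and S phase UMIs over mitosis UMIs (right), by zeitgeber time in hours. Each point is a library, with sh-Acsf3 in red left of sh-Ctl in blue, and each dash is the median of 4. Mitosis sums reach 94.4 CPM in sh-Acsf3 and 28.6 CPM in sh-Ctl livers.

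The 14 S phase genes were next examined singly. Of these, 12 had enough UMIs to be tested by edgeR's quasi-likelihood test on the treatment difference averaged over the 8 times, and 5 rose and none fell (Benjamini-Hochberg adjusted over 10097 genes, of which 8.26% rose, 6.22% fell and 14.5% changed in either direction). The median log2 difference was 0.42 over these 12 and -0.0085 over all genes tested. The 5 were Mcm6, Mcm5, Tyms, Rrm1 and Lig1. DESeq2 and limma-voom also called no S phase or mitosis gene lower. Over the 18 tested S phase and mitosis genes together, edgeR called 11 higher, DESeq2 12 and limma-voom 8. In either direction DESeq2 called 1408 of 10091 genes and limma-voom 1442 of 10097.

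Mcm6, a subunit of the helicase that unwinds the template (chr1:128331590-128359664, minus strand, GRCm38), lay at 1.98, 6.95 and 20.05 CPM (lowest, median, highest) in sh-Acsf3 livers and at 1.496, 3.67 and 10.1 CPM in sh-Ctl livers. The ranges overlapped, and the pooled level was higher in sh-Acsf3 at 7 of 8 times. It rose by 0.80 ± 0.17 (log2, SE, edgeR adjusted p = 0.00051), and the call held when any 1 of the 64 libraries was left out.

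Mcm5, another subunit of the same helicase (chr8:75109569-75128439, plus strand), lay at 0.283, 1.71 and 7.76 CPM in sh-Acsf3 livers and at 0, 0.763 and 3.02 CPM in sh-Ctl livers. Every sh-Acsf3 library held at least 1 Mcm5 UMI, against 26 of 32 sh-Ctl libraries. Its rise was 0.93 ± 0.29 (edgeR adjusted p = 0.0205). Without sh-Acsf3 ZT18 replicate 1 it was 0.69 (adjusted p = 0.085), without sh-Acsf3 ZT9 replicate 3 it was 0.87 (adjusted p = 0.065), and without the libraries with pancreas RNA it was 0.73 (adjusted p = 0.15). It was called in 1 of the 4 fits without 1 replicate number (adjusted p up to 0.23).

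Tyms, the gene of thymidylate synthase (chr5:30058202-30073617, minus strand), lay at 3.97, 9.13 and 15.95 CPM in sh-Acsf3 livers and at 3.02, 7.15 and 9.77 CPM in sh-Ctl livers. Its rise was small, 0.39 ± 0.10 (edgeR adjusted p = 0.0029), and it was higher in sh-Acsf3 at all 8 times. The call held in all 64 fits without 1 library and was lost without replicate 3 of every group (0.29, adjusted p = 0.12).

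Rrm1, the large subunit of ribonucleotide reductase (chr7:102441695-102469771, plus strand), lay at 4.20, 8.47 and 19.4 CPM in sh-Acsf3 livers and at 3.87, 7.12 and 12.9 CPM in sh-Ctl livers, a rise of 0.31 ± 0.11 (edgeR adjusted p = 0.038). Lig1, the ligase that seals fragments of the lagging strand (chr7:13277283-13311433, plus strand), lay at 0, 2.22 and 9.78 CPM in sh-Acsf3 livers and at 0, 1.37 and 5.41 CPM in sh-Ctl livers, a rise of 0.64 ± 0.23 (edgeR adjusted p = 0.043). Both calls are near the threshold, and each was made in 1 of the 4 fits without 1 replicate number (adjusted p up to 0.42 for Rrm1 and 0.27 for Lig1). The Rrm1 call was lost in 15 of the 64 fits without 1 library (adjusted p 0.051 to 0.096 in those) and the Lig1 call in 26 (0.05005 to 0.14). Without the libraries with pancreas RNA the adjusted p was 0.11 for Rrm1 and 0.07 for Lig1, and without those high in Saa1 it was 0.061 and 0.053.

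The remaining 4 helicase subunits differed by 0.52 ± 0.19 for Mcm2 (edgeR adjusted p = 0.051), 0.45 ± 0.17 for Mcm4 (0.072), 0.45 ± 0.21 for Mcm3 (0.14) and 0.21 ± 0.10 for Mcm7 (0.14), and none of them passed. Mcm2 passed in 26 of the 64 fits without 1 library (adjusted p 0.022 to 0.049). Mcm7 was among the S phase genes with the most UMIs, at 4.20, 9.27 and 19.2 CPM in sh-Acsf3 livers and 4.07, 7.98 and 16.2 CPM in sh-Ctl livers. Its exons overlap those of Cops6 and Ap4m1 on the other strand, which differed by 0.01 and -0.11 (log2), and the sources used here do not state whether counting used strand.

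Pcna, the sliding clamp, lay at 5.12, 9.17 and 16.0 CPM in sh-Acsf3 livers and at 4.18, 8.84 and 14.1 CPM in sh-Ctl livers. The ranges nearly coincide, and its log2 difference was 0.12 ± 0.09 (edgeR adjusted p = 0.42). Rrm2 lay at 3.22, 10.3 and 28.7 CPM in sh-Acsf3 livers and at 1.93, 9.57 and 26.4 CPM in sh-Ctl livers, a log2 difference of 0.37 ± 0.15 that did not pass (adjusted p = 0.093). Cdt1, which licenses origins together with CDC6, differed by 0.10 ± 0.18 (adjusted p = 0.79), and its sign turned to -0.039 without sh-Acsf3 ZT18 replicate 1.

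Cdc6 and Gins2, which encodes a part of the active helicase, were below the count filter. Cdc6 gave 51 UMIs in sh-Acsf3 livers and 16 in sh-Ctl livers, a pooled ratio of 3.14 (95% interval 1.76 to 5.91), and was higher in sh-Acsf3 at all 8 times. Gins2 gave 120 and 100 UMIs, a ratio of 1.18 (0.900 to 1.56). An edgeR fit of the treatment difference with additive time effects and no count filter, added after seeing the data, covered 23436 genes, of which 4.73% rose and 2.67% fell. In it Cdc6 rose by 1.56 ± 0.37 (adjusted p = 0.0021), and Gins2 differed by 0.26 ± 0.27 (adjusted p = 0.603).

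**Figure D3:**
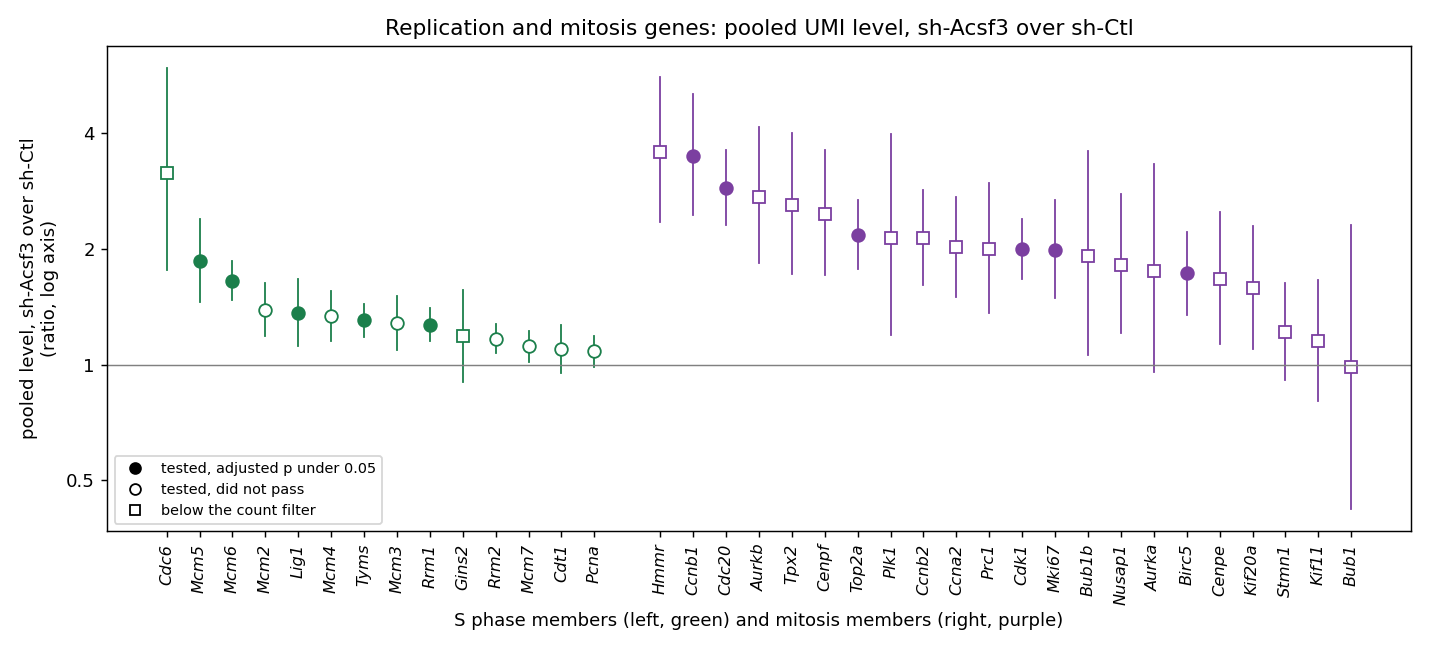
Pooled level in sh-Acsf3 over sh-Ctl livers (log axis) for the 14 S phase members (green) and the 22 mitosis members (purple), with 95% intervals for counting error. Filled circles passed edgeR's averaged test, open circles did not, and squares were below the count filter. The ratio exceeds 1 for 35 of 36 members, with medians of 1.29 for S phase and 1.99 for mitosis. The share of all genes with a ratio above 1 was not computed.

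Of the 22 mitosis genes, 6 passed the count filter, and all 6 rose, beside the 8.26% of all tested genes that rose. A gene can pass the filter through its level in sh-Acsf3 livers alone, so this count does not stand for all 22. Their median log2 difference was 1.20. The pooled ratio of sh-Acsf3 to sh-Ctl, which needs no filter, was above 1 for 21 of the 22, and its 95% counting interval lay above 1 for 18 of them. For the S phase genes the numbers were 14 and 11 of 14. The share of all genes with such a ratio or interval was not computed, and the interval leaves out the spread between libraries. These counts therefore describe the members and are not set against all genes.

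Cdk1, the kinase that drives entry into mitosis (chr10:69335146-69352938, minus strand), was the most counted of the mitosis genes. It lay at 1.20, 3.17 and 12.8 CPM in sh-Acsf3 livers and at 0, 1.78 and 5.18 CPM in sh-Ctl livers. It rose by 1.05 ± 0.21 (log2, SE, edgeR adjusted p = 0.00017), was higher in sh-Acsf3 at all 8 times, and kept its call without any 1 library.

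Top2a, the topoisomerase that untangles sister chromatids (chr11:98992943-99024189, minus strand), lay at 0, 2.16 and 10.6 CPM in sh-Acsf3 livers and at 0, 1.097 and 5.43 CPM in sh-Ctl livers, a rise of 1.29 ± 0.28 (edgeR adjusted p = 0.00068). Cdc20, the activator of the anaphase-promoting complex (chr4:118432901-118437352, minus strand), lay at 0.301, 2.19 and 14.5 CPM in sh-Acsf3 livers and at 0, 0.813 and 4.84 CPM in sh-Ctl livers, a rise of 1.53 ± 0.33 (adjusted p = 0.00067). Both calls held without any 1 library. Cdc20 overlaps Elovl1 on the other strand, a far more abundant gene at 34.2 CPM in sh-Acsf3 and 34.5 CPM in sh-Ctl livers, whose log2 difference was 0.12 (edgeR adjusted p = 0.46).

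Ccnb1, the gene of cyclin B1, the partner of CDK1 (chr13:100778650-100786570, minus strand), gave 145 UMIs in sh-Acsf3 livers and 41 in sh-Ctl livers. It lay at 0, 0.664 and 5.95 CPM in sh-Acsf3 livers and at 0, 0.246 and 1.36 CPM in sh-Ctl livers. Its rise, 1.70 ± 0.39 (edgeR adjusted p = 0.0012), was the largest among the tested members and held without any 1 library. It passed the count filter in 2 of the 4 fits without 1 replicate number and was called in both. The annotated copy Ccnb1-ps had no UMI in any library.

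Birc5, the gene of survivin of the chromosomal passenger complex (chr11:117849251-117855743, plus strand), lay at 0.151, 1.67 and 8.08 CPM in sh-Acsf3 livers and at 0, 0.624 and 3.45 CPM in sh-Ctl livers, a rise of 0.91 ± 0.28 (edgeR adjusted p = 0.0195). Mki67, the gene of the Ki-67 antigen that coats mitotic chromosomes (chr7:135689784-135716361, minus strand), lay at 0, 1.11 and 5.95 CPM in sh-Acsf3 livers and at 0, 0.608 and 2.94 CPM in sh-Ctl livers, a rise of 1.10 ± 0.36 (adjusted p = 0.030). These 2 calls depended on few libraries. Without 1 replicate number of every group, Birc5 passed the count filter in 2 fits and was called in neither (adjusted p = 0.062 and 0.081), and Mki67 passed it in 3 and was called in 1 (adjusted p up to 0.11). The rise of Birc5 was 0.74 with replicate 1 of sh-Acsf3 ZT12 left out (adjusted p = 0.063) and 0.74 with replicate 1 of sh-Acsf3 ZT18 left out (0.073). The rise of Mki67 was 0.66 with replicate 1 of sh-Acsf3 ZT18 left out (adjusted p = 0.405), 0.86 with replicate 1 of ZT12 (0.13), 0.97 with replicate 1 of ZT6 (0.0597) and 0.98 with replicate 2 of ZT0 (0.052), all sh-Acsf3. Without the libraries with pancreas RNA the adjusted p of Mki67 was 0.063.

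The 16 mitosis genes below the filter had 26 to 234 UMIs each over all libraries, and 7 of them rose in the additive fit without a filter, beside the 4.73% of all genes in that fit. Hmmr, for a spindle protein that also binds hyaluronan, gave 105 UMIs in sh-Acsf3 livers and 29 in sh-Ctl livers, the highest pooled ratio of all members at 3.57 (95% interval 2.35 to 5.59), and rose by 1.74 ± 0.34 (edgeR adjusted p = 0.00015). Aurkb, the kinase of the passenger complex, gave 97 and 35 UMIs and rose by 1.40 ± 0.31 (adjusted p = 0.00074). Cenpf, a protein of the outer kinetochore, gave 105 and 42 UMIs and rose by 1.28 ± 0.33 (adjusted p = 0.0050).

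The other 4 were Tpx2, which activates Aurora A on the spindle (87 UMIs in sh-Acsf3 and 33 in sh-Ctl livers, ratio 2.60), Ccna2 and Ccnb2, for cyclins A2 and B2 (139 and 68 UMIs, ratio 2.02; 160 and 74 UMIs, ratio 2.13), and Prc1, which bundles microtubules of the midzone (85 and 42 UMIs, ratio 2.00). Mki67 and Lig1 did not pass in that fit (adjusted p = 0.059 and 0.11). The 9 that did not pass among the 16 ran in pooled ratio from 0.986 for Bub1 (0.421 to 2.31) to 2.14 for Plk1, the Polo kinase (39 UMIs in sh-Acsf3 and 18 in sh-Ctl livers, 1.19 to 3.97). Between them lay the checkpoint gene Bub1b (1.92), the spindle gene Nusap1 (1.82), Aurka (1.75), the centromere gene Cenpe (1.67), the kinesins Kif20a (1.58) and Kif11 (1.15), and Stmn1 (1.22), for a protein that destabilises microtubules. Exons of several low-count members overlap a gene on the other strand, whose reads cannot be told apart without knowing the strand of counting. Over Nusap1 lies Oip5 (44 UMIs in sh-Acsf3 and 19 in sh-Ctl livers), over Ccna2 lies Exosc9 (827 and 868), over Kif20a lies Cdc23 (485 and 404) and over Prc1 lies Rccd1 (56 and 43). The mitosis gene Plk1 overlaps Gm44985 (0 and 1). Among the S phase genes, Gins2 overlaps Gse1 (1011 and 1112 UMIs) and Lig1 overlaps Zswim9 (25 and 21).

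At the level of all 36 members, 24 had a higher pooled level in sh-Acsf3 at 7 or 8 of the 8 times (9 of S phase and 15 of mitosis), beside 12.8% of the 15054 genes with at least as many UMIs as Bub1. All 18 tested members had an averaged log2 difference above 0, beside 47.3% of all tested genes. Members can pass the count filter through their level in sh-Acsf3 livers alone, so this count of signs describes the tested members only.

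The difference was then followed through the day. At ZT0 the mitosis sum was 3.11 times as high in sh-Acsf3 as in sh-Ctl livers, and at ZT3 2.89 times. The ratio was 1.26 (ZT6), 1.25 (ZT9, 95% interval 0.979 to 1.60), 3.74 (ZT12), 2.07 (ZT15), 2.07 (ZT18) and 1.95 (ZT21). The S phase ratio ran between 0.897 (ZT6) and 1.60 (ZT12), and ZT6 was the only time at which a sum was lower in sh-Acsf3 livers.

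The mitosis ratio at ZT0, ZT3 and ZT15 stayed between 1.88 and 4.07 when any 1 library of the time was left out, but at the other times it depended on 1 library. It was 1.80 at ZT12 and 0.991 at ZT18 with replicate 1 of sh-Acsf3 left out, and 3.14 at ZT18 with replicate 2 of sh-Acsf3 left out. At ZT6 it was 0.828 with replicate 1 of sh-Acsf3 left out and 1.93 with replicate 1 of sh-Ctl left out. At ZT9 it was 2.41 with replicate 1 of sh-Ctl left out, and at ZT21 it was 1.25 with replicate 3 of sh-Acsf3 left out. The S phase ratio changed direction at ZT18, to 0.888 with replicate 1 of sh-Acsf3 left out, and at ZT6, to 1.05 with replicate 2 of sh-Acsf3 or 1.09 with replicate 1 of sh-Ctl left out. These fits were added after seeing the data.

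At ZT0 the mitosis sum was 34.6, 70.8, 30.3 and 32.8 CPM in the 4 sh-Acsf3 libraries and 21.7, 8.58, 12.2 and 8.70 CPM in the 4 sh-Ctl libraries. At ZT3 it was 23.1, 48.1, 24.5 and 35.0 CPM in sh-Acsf3 and 7.25, 14.9, 18.3 and 5.24 CPM in sh-Ctl. The treatments did not overlap at these 2 times, at which the S phase sum overlapped at ZT0 and not at ZT3. At ZT12 the sh-Acsf3 libraries were spread widely, at 94.4, 11.1, 32.5 and 16.8 CPM, and the sh-Ctl libraries lay at 12.5, 5.80, 11.9 and 10.3 CPM. Replicate 1 held 222 of the 344 mitosis UMIs of its group. Likewise, at ZT18 sh-Acsf3 replicate 1 held 245 of 360 mitosis UMIs, at 52.8 CPM against 12.1 to 13.7 CPM in the 3 others.

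Few single genes could be called at a single time. Mcm2 at ZT12 was the only member past the threshold, beside 1.16% of all tested genes that rose at that time. It lay at 7.23, 3.03, 5.42 and 4.06 CPM in sh-Acsf3 livers and at 1.100, 1.53, 0.938 and 0.543 CPM in sh-Ctl livers. The groups did not overlap, and the log2 difference was 2.21 ± 0.58 (edgeR adjusted p = 0.030). The call was lost without replicate 1 (2.00, adjusted p = 0.25), replicate 3 (2.13, 0.23) or replicate 4 (2.07, 0.10) and with limma-voom (2.12, 0.098). At ZT12, 12 of the 18 tested members had an unadjusted p under 0.05, all higher in sh-Acsf3, beside 13.2% of all tested genes in either direction. Since members can pass the count filter through their level in sh-Acsf3 livers alone, this count describes the tested members only.

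At the other 7 times edgeR called no member. In either direction it called 0.515% of all genes at ZT0, 0.0693% at ZT3, 0.218% at ZT6, 0.357% at ZT9, 0.0297% at ZT15, 0.168% at ZT18 and 0.317% at ZT21, against 1.40% at ZT12. The shares of genes that rose ran from 0.0198% at ZT15 to 0.465% at ZT0 over these 7 times, and were 0.0594%, 0.188%, 0.307%, 0.139% and 0.277% at ZT3, ZT6, ZT9, ZT18 and ZT21. DESeq2 and limma-voom called none either. The numbers of members with an unadjusted p under 0.05 were 5 at ZT0, 3 at ZT3, 1 at ZT6, 0 at ZT9, 4 at ZT15, 2 at ZT18 and 0 at ZT21, each higher in sh-Acsf3. The shares of all tested genes with such a p, in either direction, were 9.36%, 6.30%, 7.06%, 8.85%, 5.36%, 5.77% and 11.6% in the same order, so the members' counts at ZT6, ZT9 and ZT21 are near or below those of all genes. The limit of the count filter given for ZT12 applies to these counts too. For the 4 genes followed at every time, values at chosen hours are given. Cdc20 averaged 5.74 ± 3.08 CPM in sh-Acsf3 and 0.833 ± 0.84 CPM in sh-Ctl livers at ZT0 (SD, n = 4 each), without overlap, and 1.46 ± 1.04 and 1.58 ± 2.17 CPM at ZT9. The log2 difference of Cdc20 was 2.73 ± 0.89 (SE) at ZT0 and 2.96 ± 1.01 at ZT12. At ZT12 replicate 1 of sh-Acsf3 held Cdc20 at 11.1 CPM and the others of its group at most at 1.08 CPM. Cdk1 averaged 7.40 ± 4.63 CPM in sh-Acsf3 and 2.24 ± 0.95 CPM in sh-Ctl livers at ZT12, and 2.11 ± 1.02 and 1.75 ± 1.12 CPM at ZT9.

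Mcm6 averaged 10.4 ± 4.78 CPM in sh-Acsf3 and 3.58 ± 0.92 CPM in sh-Ctl livers at ZT12, without overlap, and 5.65 ± 3.52 and 4.73 ± 2.40 CPM at ZT6. Tyms was flatter, with group means of 7.98 to 10.4 CPM in sh-Acsf3 and 5.97 to 7.57 CPM in sh-Ctl livers. These changes of the difference over time were not themselves detectable: the interaction test with 7 degrees of freedom called no member and no gene in edgeR (0% of 10097), 0 of 18 members had an unadjusted p under 0.05, and DESeq2 and limma-voom also called no member. The smallest p was that of Mcm2 (0.155), and 307 of all genes (3.04%) had an unadjusted p under 0.05.

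The last question was at which hour each gene was highest. A mean with a 24 h cosine was fitted per treatment. In sh-Acsf3 livers 7 members passed edgeR's rhythm test, beside 19.6% of all tested genes, namely 5 S phase genes (Rrm2, Cdt1, Mcm4, Mcm6, Mcm2) and 2 mitosis genes (Ccnb1, Top2a). In sh-Ctl livers Rrm2 and Cdt1 passed, beside 19.4% of all tested genes. These shares, 7 and 2 of 18, lie above and below that of all genes. Since members can pass the count filter through their level in sh-Acsf3 livers alone, the shares describe the tested members only. The tested members also had fewer UMIs in sh-Ctl livers, 41 against 145 for Ccnb1 for example. The test of the difference between the rhythms called no member and no gene (0%). Mcm4 alone had an unadjusted p under 0.05 there (0.047), and DESeq2 and limma-voom called none.

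Cdt1 was the earliest, with a fitted peak at ZT13.4 in sh-Acsf3 and ZT11.0 in sh-Ctl livers (edgeR adjusted p = 0.013 and 0.046). Its mean was highest at ZT12 in sh-Acsf3 and at ZT9 in sh-Ctl livers, and was 5.74 ± 2.82 CPM in sh-Acsf3 and 4.69 ± 2.69 CPM in sh-Ctl livers at ZT12, against 1.92 ± 1.35 and 1.89 ± 1.17 CPM at ZT0 (SD, n = 4 each). Rrm2 peaked at ZT17.4 in sh-Acsf3 and ZT15.3 in sh-Ctl livers, with amplitudes of 0.72 and 0.69 (log2, mean to peak; edgeR adjusted p = 0.00088 and 0.0015). Its means were highest at ZT15, at 18.6 ± 4.49 CPM in sh-Acsf3 and 15.2 ± 8.42 CPM in sh-Ctl livers. They were lowest at ZT9 in sh-Acsf3 (6.15 ± 1.89 CPM) and at ZT3 in sh-Ctl livers (3.36 ± 0.81 CPM).

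The helicase genes Mcm2, Mcm4 and Mcm6 peaked at ZT16.2, ZT16.7 and ZT17.0 in sh-Acsf3 livers (edgeR adjusted p = 0.041, 0.015 and 0.021) and did not pass in sh-Ctl livers (0.27, 0.64 and 0.395). Of the mitosis genes, Top2a peaked at ZT20.3 (adjusted p = 0.045) and Ccnb1 at ZT2.5 (0.014) in sh-Acsf3 livers, and neither passed in sh-Ctl livers (0.56 and 0.34). The 4 sh-Acsf3 libraries at ZT0 held Ccnb1 at 2.93, 3.29, 1.91 and 3.39 CPM and the 4 sh-Ctl libraries at 0, 0.306, 0 and 1.087 CPM, with no overlap. At ZT15 the 4 sh-Acsf3 libraries held it at 0.721, 0.380, 0 and 0 CPM and the sh-Ctl libraries at 0, 0.356, 0.579 and 0 CPM.

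**Figure D4:**
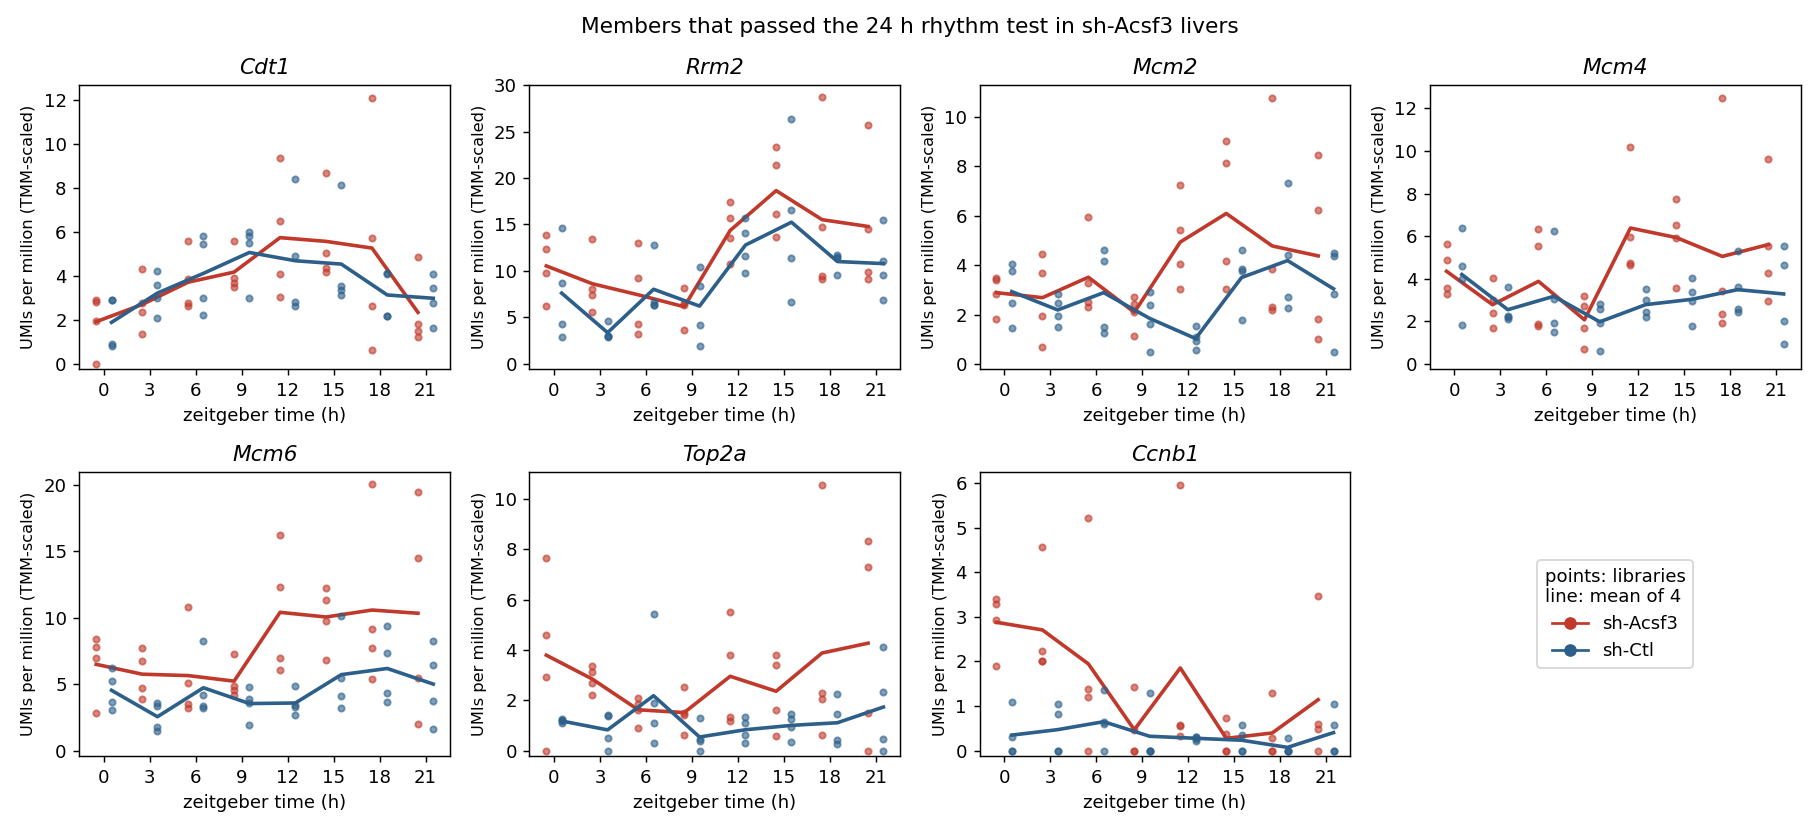
Level in CPM by zeitgeber time (h) of the 7 members that passed the 24 h rhythm test in sh-Acsf3 livers. Points are libraries, lines are means of 4, and sh-Acsf3 (red) is drawn left of sh-Ctl (blue). Fitted peaks in sh-Acsf3 livers run from ZT13.4 for Cdt1 to ZT2.5 for Ccnb1.

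Most of these calls were not stable to fewer libraries. Without replicate 1 of every group 2 members passed in sh-Acsf3 livers, without replicate 2 there were 4, and without replicate 3 there was 1 (Rrm2). Without the libraries with pancreas RNA 4 passed, and the adjusted p of Ccnb1, Mcm2 and Top2a was then 0.15, 0.14 and 0.12. In sh-Ctl livers Cdt1 did not pass without the libraries high in Saa1 (0.079), and neither Cdt1 nor Rrm2 passed without replicate 4 (0.24 and 0.11). A test of any difference among the 8 times called Rrm2 and Ccnb1 in sh-Acsf3 livers (13.1% of all genes) and Rrm2 in sh-Ctl livers (12.6%).

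Peak hours were also fitted to the summed UMIs and to every member, as a description. The S phase sum peaked at ZT17.1 ± 1.23 h in sh-Acsf3 livers, with an amplitude of 0.39 ± 0.12 (log2), and at ZT17.1 ± 2.31 h in sh-Ctl livers, with an amplitude of 0.14 ± 0.080 (SE). The mitosis sum peaked at ZT22.9 ± 2.54 h in sh-Acsf3 livers and at ZT3.0 ± 2.86 h in sh-Ctl livers, with amplitudes of 0.38 ± 0.27 and 0.25 ± 0.18. In sh-Acsf3 livers the fitted peaks of all 14 S phase genes fell between ZT13.6 and ZT19.0. Those of 18 of the 22 mitosis genes fell between ZT18 and ZT6, and the exceptions were Cdk1, Kif11, Bub1b and Ccnb2. The 2 windows, ZT12 to ZT21 (9 h) and ZT18 to ZT6 (12 h), were chosen after seeing the peaks and overlap. In sh-Acsf3 livers 14 S phase and 8 mitosis peaks lay in the first, and 2 S phase and 18 mitosis peaks in the second. In sh-Ctl livers 5 S phase and 5 mitosis peaks lay in the first, and 9 S phase and 16 mitosis peaks in the second. Members share libraries, so these counts are not independent. For many members the error of the peak is several hours, 4.36 h for Mki67 in sh-Acsf3 livers for example.

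Other genes of the same processes gave a context for the members. Of 52 other DNA replication genes 37 were tested, and 3 rose and none fell, beside 8.26% and 6.22% of all genes, with a median log2 difference of 0.065. The 3 were Dbf4, for the activator of the CDC7 kinase (0.68 ± 0.17, edgeR adjusted p = 0.0021), Hells, a chromatin remodeller (1.07 ± 0.28, 0.0046), and Pold4, the smallest subunit of polymerase delta (0.25 ± 0.087, 0.037). Of 74 other mitosis genes 21 were tested, and 9 rose and 1 fell, with a median of 0.27. Since a gene can pass the count filter through its level in sh-Acsf3 livers alone, the 9 of 21 do not stand for all 74. In the additive fit without a filter 26 of the 74 rose and 1 fell, beside 4.73% and 2.67% of all genes in that fit. Smc4 and Smc2, for the condensin core, rose by 0.50 ± 0.082 and 0.69 ± 0.15 (adjusted p = 4.2e-06 and 0.00052). Cenpa, for the histone of centromeres, rose by 0.49 ± 0.10 (0.00035), and Ube2c, for the ubiquitin-conjugating enzyme of the anaphase-promoting complex, by 1.14 ± 0.25 (0.00052). The gene that fell was Pttg1, for securin (-0.27 ± 0.062, 0.00105). Of 20 genes for E2F, DREAM and MMB regulators 13 were tested and none passed in edgeR. The nearest were E2f2 (0.49 ± 0.18, adjusted p = 0.058) and E2f5 (-0.19 ± 0.091, 0.15), the only ones with an unadjusted p under 0.05. In the additive fit without a filter 1 of the 20 rose, beside the 4.73% of all genes.

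Markers of several non-parenchymal cells moved with the treatment as well. The summed T, NK and B cell markers lay at 25.7, 74.3 and 147.9 CPM (lowest, median, highest) in sh-Acsf3 and 14.8, 21.3 and 58.2 CPM in sh-Ctl livers. Of 21 listed markers 9 were tested and 8 rose, beside 8.26% of all tested genes. A gene can pass the count filter through its level in sh-Acsf3 livers alone, so this count does not stand for all 21. In the additive fit without a filter 15 of the 21 rose, beside 4.73% of all genes in that fit. The same share and limit apply to the tested markers of the lists below. Stellate cell and fibroblast markers lay at 424, 561 and 841 CPM in sh-Acsf3 and 200, 325 and 421 CPM in sh-Ctl livers, and 12 of 14 rose. Kupffer cell, macrophage and monocyte markers lay at 242, 416 and 662 CPM in sh-Acsf3 and 175, 295 and 635 CPM in sh-Ctl livers, and 8 of 15 rose. Of the sinusoidal endothelial, cholangiocyte and red cell markers 1 of 12, 2 of 4 and 0 of 6 rose. The red cell marker Klf1 fell, close to the threshold (-0.41 ± 0.15, edgeR adjusted p = 0.0497). In the additive fit without a filter 0 of 9 red cell markers fell. Of 14 tested exocrine pancreas markers none passed, with a median log2 difference of 2.86, and in the additive fit without a filter 14 of 16 rose. Their sums lay at 4.25, 14.9 and 9349 CPM in sh-Acsf3 and 8.70, 14.6 and 876 CPM in sh-Ctl livers (470 and 61.2 CPM pooled). Hepatocyte markers gave no rise and 2 falls among 10. All marker lists had UMIs, and which cells carried the replication and mitosis transcripts was not tested.

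The 5 libraries with the highest mitosis sums were all sh-Acsf3: ZT12 replicate 1 (94.4 CPM), ZT0 replicate 2 (70.8), ZT21 replicate 3 (66.6), ZT6 replicate 1 (66.5) and ZT18 replicate 1 (52.8). Their summed exocrine pancreas markers were at most 13.0 CPM, and their Saa1 was at most 79.8 CPM. Their T, NK and B cell markers lay at 57.4, 79.6, 99.9, 147.9 and 78.3 CPM in that order, and ZT6 replicate 1 held the highest level of all sh-Acsf3 libraries, while ZT12 replicate 1 lay below the sh-Acsf3 median of 74.3 CPM. Their stellate markers were at 841, 674, 562, 733 and 620 CPM, above the sh-Acsf3 median of 561 CPM, and 841 CPM is the highest of all 64 libraries. Their Kupffer cell, macrophage and monocyte markers were at 454, 584, 597, 662 and 456 CPM, above the sh-Acsf3 median of 416 CPM, and 662 CPM is the highest of all 64. The part of these cells in the mitosis sums was not tested.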

How the data were processed

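The labels describe BRB-seq, a bulk 3′ barcoding method, on total RNA of frozen liver, 64 libraries. Per the submitters' processing notes the authors used STAR and the GRCm38/mm10 assembly. They deposited raw UMI counts per gene, without normalization. Versions, annotation release, UMI settings and the strand of counting are not given in the sources used here.

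Counts were analysed with edgeR 4.0.16 in R 4.3.3: its filterByExpr step, set to a minimum count of 10 and a minimum total of 15 in the 16 groups, kept 10097 of 23436 genes with UMIs, libraries were scaled by TMM, and a robust quasi-likelihood model of 16 group means was fitted (48 residual degrees of freedom, common biological coefficient of variation 0.189). Rhythm models held a mean, a 24 h cosine and sine per treatment (58 degrees of freedom). P-values were adjusted by Benjamini-Hochberg within each test, threshold 0.05. Ratios of pooled counts carry exact 95% intervals. Descriptive peak hours came from quasi-Poisson fits. Fits were checked on simulated counts. CPM is counts per 1000000 of TMM-scaled library size.

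The members and the lists were chosen with earlier results of these data known. Named genes were all 36 members, with full values for those passing the averaged test and the 3 most counted of each phase, values by time for the 2 per phase with the smallest p, members passing other tests, and up to 4 genes of each further list. No library was a copy of another: over 96 replicate pairs the lowest chi-square per degree of freedom was 2.54. Alternatives used DESeq2 1.42.0, limma-voom 3.58.1, other scalings, filters, a replicate block and leaving out libraries. Positions came from GENCODE M21 on GRCm38, and matplotlib 3.10.9 under Python 3.11.15 drew the figures.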

Additional observations from a re-analysis of the deposited data

Results flagged for a closer look

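In 19 of 128 groups of 4 libraries (the S phase sum, the mitosis sum, their ratio, Mcm6, Tyms, Cdk1, Cdc20 and Rrm2, each in 16 groups), 1 library stood apart from the other 3 by Dixon's criterion. Chance passes it in about 5% of groups when values are independent and normal. Here the single genes are parts of the sums and all measures share libraries, so the 19 groups are not independent and the 5% is only a rough guide. 

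Sh-Acsf3 ZT6 replicate 1 stood apart in 4 measures: its mitosis sum was 66.5 CPM (14.3 to 20.3 CPM in the others), Cdc20 was 14.5 CPM (at most 2.01), Cdk1 was 6.32 CPM (at most 1.79), and it had 1.45 S phase UMIs per mitosis UMI (at least 3.26). Sh-Acsf3 ZT18 replicate 1 had a mitosis sum of 52.8 CPM (at most 13.7 in the others) and an S phase sum of 178.5 CPM (at most 75.4). The mitosis sum was also far above the others in sh-Acsf3 ZT0 replicate 2, at 70.8 CPM (at most 34.6), and in sh-Ctl ZT9 replicate 1, at 21.3 CPM (at most 6.39). The sh-Ctl library is 1 of the 4 high in Saa1.

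For Cdc20, sh-Acsf3 ZT12 replicate 1 was at 11.1 CPM (at most 1.08 in the others), sh-Ctl ZT9 replicate 1 at 4.84 CPM (at most 0.597), sh-Ctl ZT0 replicate 1 at 2.08 CPM (at most 0.581) and sh-Ctl ZT12 replicate 3 at 0.938 CPM (at most 0.305). For Cdk1, sh-Acsf3 ZT3 replicate 2 was at 6.01 CPM (at most 2.69) and sh-Ctl ZT21 replicate 2 at 5.18 CPM (at most 1.46). Rrm2 was high in sh-Ctl ZT6 replicate 1 at 12.8 CPM (at most 6.65) and in sh-Ctl ZT3 replicate 3 at 4.58 CPM (at most 3.04), and low in sh-Ctl ZT18 replicate 1 at 9.52 CPM (at least 11.4). S phase UMIs per mitosis UMI were high in sh-Acsf3 ZT21 replicate 2, the shallowest library, at 7.00 (at most 2.89), and low in sh-Ctl ZT0 replicate 1 at 3.71 (at least 5.92). No member's treatment difference was shown to differ between times.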

How the results depend on the processing

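The pooled ratios kept their direction in all 47 alternatives each, at 1.15 to 1.39 for the S phase sum and 1.95 to 2.33 for the mitosis sum. No alternative called a member lower in the averaged test or called a member for interaction or differing rhythm. The 11 members called higher became 22 of 36 without a count filter and 17 in the additive fit without a filter. Without a filter the group-mean fit gave no usable error for Bub1, Bub1b and Plk1. The 11 became 12 with DESeq2, 8 with limma-voom and 3 among genes of at least 5 CPM (6 tested). They became 5 to 12 without 1 replicate number, and 7 (sh-Acsf3 ZT12 replicate 1) to 17 (sh-Ctl ZT6 replicate 1) without 1 library. All called genes in either direction, 1462 of 10097, became 1909 of 23436 without a count filter and 972 at 5 CPM. They became 788 to 1361 without 1 replicate number and 1377 to 1611 without 1 library. Cdt1 turned to -0.13 without replicate 1, -0.04 without replicate 3 (0.32 at the highest, without replicate 4) and -0.039 without sh-Acsf3 ZT18 replicate 1; the cause was not tested. Rhythmic members in sh-Acsf3, 7, became 2 at 5 CPM, 4 without pancreas RNA and 1 to 7 without 1 replicate number. In sh-Ctl, 2 became 1 without a filter, at 5 CPM, with limma-voom and without Saa1-high libraries, and 0 to 2 without 1 replicate number. Members differing by time in sh-Acsf3, 2, became 14 without a filter, 1 with DESeq2, library size only, 5 CPM or no pancreas RNA, and 0 to 2 without 1 replicate number; in sh-Ctl, 1 became 2 without a filter, 0 without pancreas RNA and 0 to 1 without 1 replicate number. Without a filter, members called at single times were 4 (ZT0), 3 (ZT3), 1 (ZT6), 9 (ZT12) and 1 (ZT18). The shares of all genes called without a filter at single times or by time of day were not computed. These member counts therefore cannot be set against all genes. At ZT12, 1 became 0 at 5 CPM and with limma-voom, 3 without pancreas RNA and 0 to 3 without 1 replicate number, and at ZT0 0 to 1. Pairing by replicate number was only described. Same-numbered libraries of a time correlated at -0.16 to 0.26, above 0.1 in 7 of 32 pairs. Among the 4 sh-Ctl libraries of their time, 12 of 32 sh-Acsf3 libraries correlated best with their own number. Between groups the mean correlation was 0.029 for the same number and -0.0096 for other numbers. A shared effect of replicate number was not tested. With a replicate block 13 members and 1558 genes were called in the averaged test and 3 members for time in sh-Ctl. Depth limits the mitosis genes most, with a median of 64 UMIs per sh-Acsf3 library and 35.5 per sh-Ctl library.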
